A study of Mus musculus with 4 samples.

Results

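The genes described here encode the nuclear subunits of the 5 oxidative phosphorylation complexes of the mitochondrion. They were taken by symbol (Nduf with a letter a, b, c, s or v and a number, the 4 Sdh genes, Uqcr, Cox4 to Cox8 and Atp5), which fits 85 of the 32285 genes measured, and 81 had at least 50 UMIs over the 4 libraries. A UMI (unique molecular identifier) stands for 1 captured RNA molecule. The 4 under that minimum were Cox8c with 0, Cox8b with 1, Cox7b2 with 10 and Ndufa4l2 with 26 UMIs. The 81 genes comprise 7 core and 29 accessory subunits of complex I, 4 of complex II, 8 of complex III, 15 of complex IV, Ndufa4, which is held apart as complex IV associated, and 17 of complex V. Cox7a2l, known as a supercomplex factor, and Ndufb1-ps, which carries a pseudogene symbol, fit the rule and stayed in. Whether Cox7a2l acts in that way in these mice was not tested.

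Oxidative phosphorylation passes electrons from NADH through complex I, or from succinate through complex II, to complexes III and IV, and complex V uses the resulting proton gradient to make ATP. Most subunits are encoded in the nucleus, whereas a small core set is encoded by mitochondrial DNA. Neutrophils are known for few mitochondria and a reliance on glycolysis once mature, and their precursors in marrow hold more mitochondria.

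The libraries came from fracture calluses of 20-month-old male C57BL/6J mice, taken 7 days after an adenosine-containing microgel (adenosine 1 and 2) or an empty one (control 1 and 2). No genetic change is labelled, and every animal carried the fracture and a microgel. The labelled tissue is bone marrow, and red cells had been lysed and the cells sorted for viability by propidium iodide. Nothing in the labels tells whether both libraries of 1 treatment stem from different mice, and the p-values therefore cover library-to-library spread alone. Values per library are given in the order control 1, control 2, adenosine 1, adenosine 2.

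After filtering, 6282 to 8690 cells per library were kept, and 13 to 28 cell barcodes were shared by any 2 libraries. Cells were placed in classes and neutrophil stages by marker genes that include none of the 81. A neutrophil gate held 20756 cells, a monocyte-macrophage gate 4621, T or NK cells 1718, B cells 1458, promyelocytes 720, conventional dendritic cells 322, basophils or mast cells 149 and plasmacytoid dendritic cells 142. Cells with bone-lineage markers were scarce, with 49 in the mesenchymal gate and 39 in the osteoclast gate. Control 2 stood apart: 2754 of its neutrophils fell in the activated mature stage against 20 to 100 in the other libraries, and 168 were immature against 1567 to 2066. It also held 1 promyelocyte, so that stage rests on the other 3 libraries.

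The summed level of the 81 genes was lower at each later neutrophil stage from promyelocytes to activated mature cells. It is given in CPM, the UMIs of these genes per 1000000 UMIs of the gated cells. Promyelocytes, the granule-forming precursors, had 22697, 21788 and 24229 CPM in control 1, adenosine 1 and adenosine 2. Dividing pre-neutrophils had 11830, 10564, 10921 and 12363 CPM. Immature, no longer dividing neutrophils had 8362, 7979, 8201 and 9034 CPM. These 3 stages did not overlap in any library. Resting mature neutrophils had 6546, 6495, 6196 and 6661 CPM, a mean of 6474 ± 198 (SD, n = 4). Activated mature neutrophils, marked by Cxcl2, Ccl3 and Tnf, had 4467, 4021 and 4860 CPM, and adenosine 2 had too few for a value. Each of the 5 stages thus lay apart from its neighbours. Mature neutrophils with interferon-stimulated genes had 7801 and 6477 CPM in the controls and 7246 CPM in adenosine 2, which overlapped the resting stage. The total UMIs per cell fell as well: the median cell held 16287 to 19349 UMIs in the promyelocyte gate, of which 318 to 460 belonged to the 81 genes, and 2156 to 2488 UMIs in the resting mature gate, of which 13 to 15 did. In CPM over UMIs without the gate markers, the means from promyelocytes to activated mature cells were 24601, 17067, 13372, 8223 and 5106, in the same order.

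**Figure D1:**
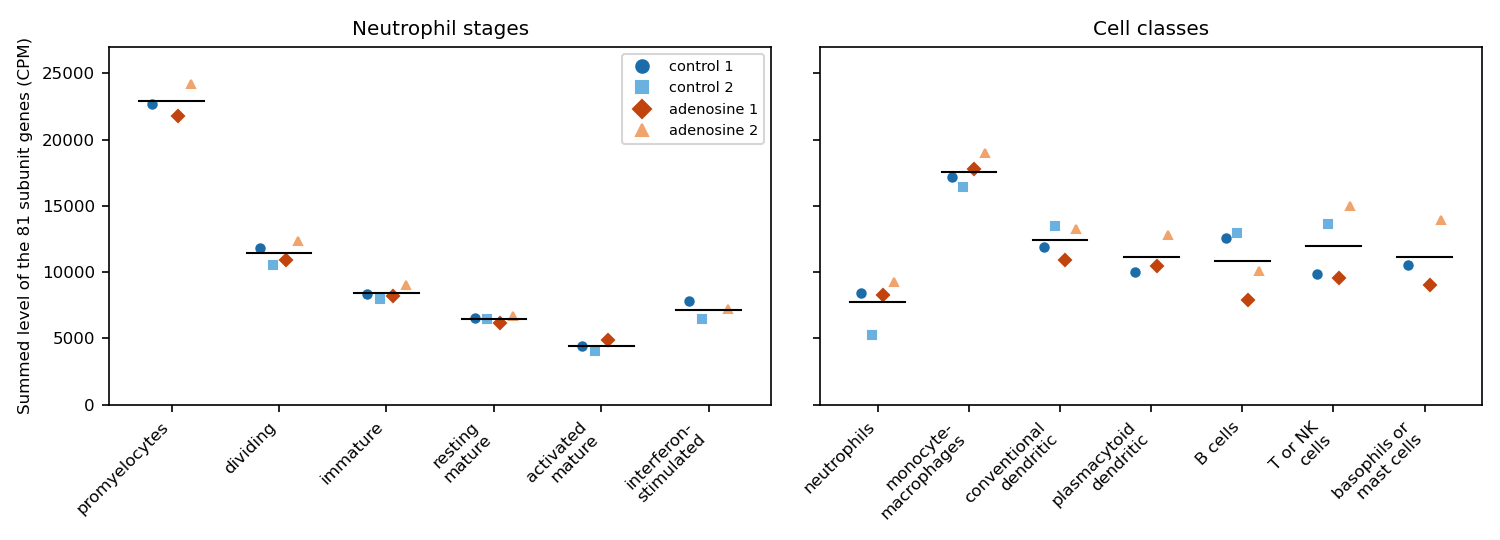
Summed level of the 81 subunit genes in CPM (linear axis from 0) for 6 neutrophil stages (left) and 7 cell classes (right). Each symbol is 1 library with at least 30 cells and each line the mean. The sum drops from 22904 CPM in promyelocytes to 4450 CPM in activated mature neutrophils, and monocyte-macrophages have the highest mean of the 7 classes drawn at 17587 CPM.

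Single genes were tested with the edgeR quasi-likelihood test on UMI counts summed per library and gate, scaled by TMM, which sets the bulk of genes to no change. The library was a block, and a gene was called at a Benjamini-Hochberg adjusted p below 0.05 over all genes tested. Of 79 tested members, 50 were lower in dividing cells than in promyelocytes (28.4% of all 11804 genes were lower) and 3 were higher (35% of all genes). From dividing to immature cells 22 were lower (26.5% of all genes) and 4 higher (27.3%). From immature to resting mature cells 57 were lower (28.6%) and 2 higher (25%). From resting to activated mature cells 40 were lower (16.4%) and 1 higher (14.7%). Activated cells held 239287, 8514999 and 166244 UMIs in control 1, control 2 and adenosine 1. There 3 counts equal 12.5, 0.352 and 18.0 CPM, so single genes in control 1 and adenosine 1 rest on few UMIs. Between interferon-stimulated and resting mature cells none was lower (0.0847%) or higher (0.847%), and DESeq2 called no member either. At an unadjusted p below 0.05 (edgeR) there were 6 of 79 members, a smaller share than the 1304 of all 11804 genes. Over the span from dividing to resting mature cells 57 were lower (37.8%) and 4 higher (34.5%).

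The shares of members lower were thus above the share of all genes at 3 of the 4 successive steps, and near it from dividing to immature cells. The members' median log2 change was -0.57, -0.12, -0.62 and -0.63 over the 4 steps, beside 0.13, 0.05, -0.04 and -0.13 for all genes. The second step depended on the scaling and on the libraries. By library size alone 54 of 79 members were lower (4198 of 11804 genes). Without control 2, by TMM, 39 of 79 were lower (3619 of 11614 genes) and 8 higher (3585 genes). In both settings the members' share lower was above that of all genes. Scaled by total UMIs, without TMM, the median over all genes moved to -0.35, -0.25, 0.06 and -0.33, and that of the members to -1.03, -0.44, -0.49 and -0.79. The scaling thus shifted the steps by unlike amounts, so which step holds a gene's largest fall can depend on it.

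**Figure D2:**
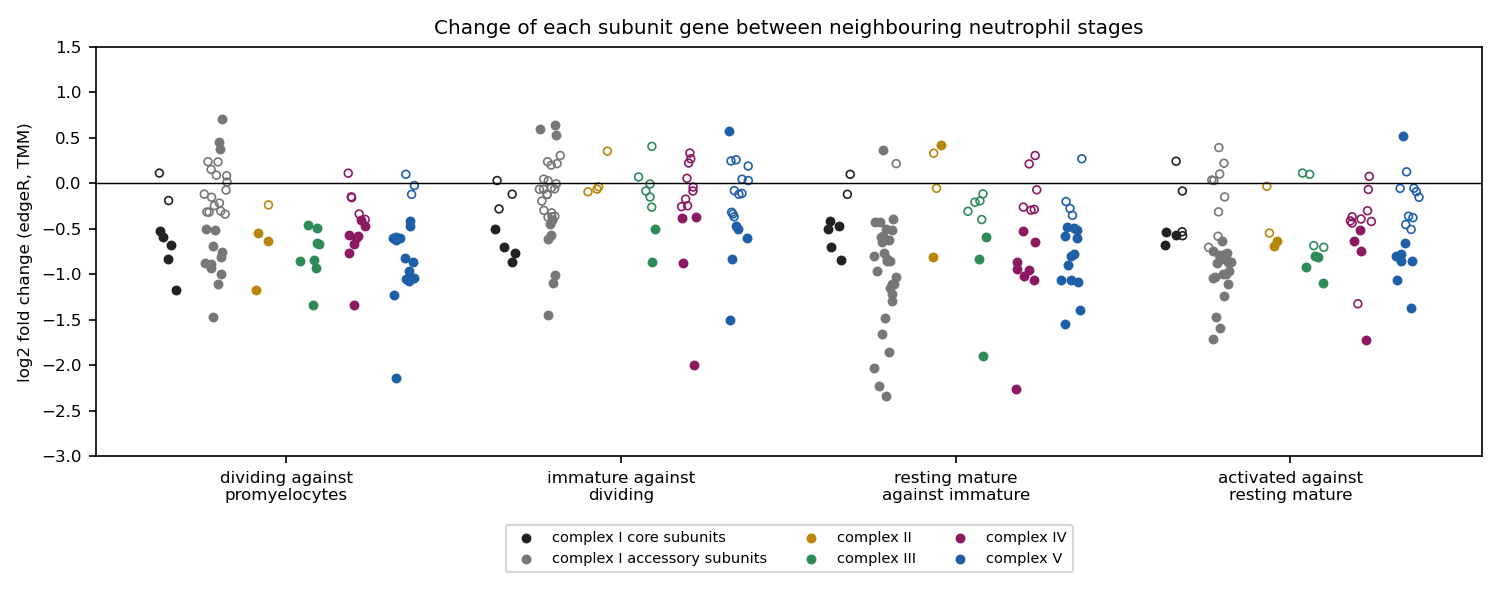
Log2 fold change (edgeR, TMM) of each tested subunit gene at 4 steps between neighbouring neutrophil stages, coloured by complex, with Ndufa4 drawn in complex IV. Filled points passed an adjusted p of 0.05 and open points did not; most filled points lie below 0, and Cox4i2, whose fitted values lie outside the axis at 3 steps, is not drawn there.

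Complex I oxidises NADH, and its core subunits carry the flavin and the iron-sulfur clusters. Of the 7 core genes, 5, 4, 5 and 3 were lower at the 4 successive steps and none was higher. Of all genes 28.4%, 26.5%, 28.6% and 16.4% were lower. Ndufv1, the flavin-binding subunit, had 56.5, 62.6 and 85.2 CPM in promyelocytes and 25.9, 27.3, 25.6 and 30.7 CPM in dividing cells. It then had 11.2, 8.20, 11.4 and 15.4 CPM in immature cells. No library of one stage reached another. Its log2 change was -0.83 ± 0.16 (SE, edgeR adjusted p = 6.43e-05) at the first step and -0.86 ± 0.17 (adjusted p = 9.50e-05) at the second. Ndufs3, an iron-sulfur fragment subunit, fell from 79.8, 76.5 and 118 to 27.9, 43.7, 21.9 and 32.5 CPM at the first step (log2 -1.17 ± 0.17, edgeR adjusted p = 1.28e-06). Ndufv2 fell from 44.1, 37.7, 42.3 and 48.3 CPM in immature to 30.7, 32.5, 23.5 and 31.0 CPM in resting mature cells (log2 -0.70 ± 0.13, edgeR adjusted p = 6.06e-05). Ndufs8 passed at each of the first 3 steps, Ndufs7 at the first, and Ndufs1 at none of these 3. In activated cells Ndufs1 (log2 -0.56), Ndufs7 and Ndufv2 (-0.54) were lower than in resting cells. Ndufs7, which binds the last iron-sulfur cluster of the chain, had 41.8, 29.5 and 12.03 CPM there beside 58.8, 59.9, 47.9 and 50.4 CPM at rest (log2 -0.68 ± 0.22, edgeR adjusted p = 0.0178), a call lost with no filter on low counts (adjusted p = 0.118). The 12.03 CPM in activated cells of adenosine 1 lay below the 18.0 CPM that 3 counts make.

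The accessory subunits, which surround the core and serve its assembly and stability, had most of their calls after the immature stage: 27 of 29 were lower in resting mature than in immature cells (28.6% of all genes). Ndufa11, a membrane subunit, had 71.1, 68.1, 69.8 and 85.6 CPM in immature cells. It had 14.8, 11.1, 18.0 and 18.9 CPM in resting mature cells, a log2 change of -2.33 ± 0.16 (edgeR adjusted p = 1.86e-12). Every resting library lay far below every immature one. Ndufc2 had already dropped at the step before, from 133, 118, 103 and 121 to 37.9, 24.6, 33.3 and 41.0 CPM (log2 -1.45 ± 0.15, edgeR adjusted p = 3.22e-09). By the resting stage it had 12.4, 11.4, 12.01 and 11.2 CPM. Ndufa5, a subunit of the matrix arm, was at 55.1, 47.4, 50.02 and 49.2 CPM in dividing and 3.59, 4.51, 4.94 and 4.47 CPM in resting mature cells (log2 -3.31 ± 0.18, edgeR adjusted p = 2.50e-15). Ndufa12 had the largest called fall among accessory genes from promyelocytes to dividing cells, at 134, 105 and 169 CPM there and 36.9, 45.5, 23.6 and 42.2 CPM in dividing cells (log2 -1.47 ± 0.17, edgeR adjusted p = 4.40e-08). Ndufb11, a membrane-arm subunit, had the largest called fall among them in activated cells, from 117, 68.9, 107 and 120 to 37.6, 27.8 and 6.02 CPM (log2 -1.71 ± 0.30, edgeR adjusted p = 5.68e-05). The 6.02 CPM in adenosine 1 lay below the 18.0 CPM that 3 counts make.

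A few accessory genes went the other way. Ndufa7 had 86.0, 115, 78.2 and 85.4 CPM in dividing, 114, 121, 95.5 and 115 CPM in immature and 155, 205, 133 and 147 CPM in resting mature cells. All 4 libraries rose at both steps, and from dividing to resting mature the log2 change was 1.01 ± 0.14 (edgeR adjusted p = 3.85e-07). The second of these steps (log2 0.37) lost its call without adenosine 2 (adjusted p = 0.0702). The call was also lost with no filter on low counts (log2 0.15, edgeR adjusted p = 0.562) and with no library block (0.204). By library size without the gate markers it was lost as well (0.147). Ndufa13 (log2 0.60) and Ndufa1 (log2 0.54) also passed from dividing to immature cells, and neither passed by library size alone (edgeR adjusted p = 0.0956 and 0.2005). Ndufa1 also lost its call without adenosine 2 (adjusted p = 0.0693). At the first step Ndufb7, Ndufv3 and Ndufs4 were called higher relative to the bulk of genes. Their CPM moved little: Ndufb7 had 322, 330 and 327 CPM in promyelocytes and 365, 363, 385 and 405 CPM in dividing cells. Ndufs4 and Ndufv3 turned to log2 -0.11 and -0.026 by library size alone, and Ndufb7 to 0.24, all without a call. Without control 2 Ndufs4 also lost its call (log2 0.17, adjusted p = 0.105).

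Complex II, which also serves the tricarboxylic acid cycle as succinate dehydrogenase, followed this course in part. At the first step 3 of its 4 genes were lower, at the second none was called, and at the third Sdhc was lower and Sdha higher. Of all genes 28.4%, 26.5% and 28.6% were lower at these steps. Sdha, the flavoprotein, had 48.7, 35.3, 54.2 and 42.1 CPM in immature and 77.0, 58.7, 73.6 and 54.1 CPM in resting mature cells. It rose in all 4 libraries, with a log2 change of 0.43 ± 0.14 (edgeR adjusted p = 0.0136), and lost its call without adenosine 2 (adjusted p = 0.0569). The call was also lost with no filter on low counts (log2 0.20, edgeR adjusted p = 0.406) and with no library block (0.0818). By library size without the gate markers it was lost as well (0.0716). In activated cells Sdha had 46.0, 29.7 and 36.1 CPM (log2 -0.69 ± 0.20, edgeR adjusted p = 0.00941; 0.101 with no filter on low counts). Sdhd, a membrane anchor, had 107, 97.7 and 99.3 CPM in promyelocytes and 32.7, 34.6, 35.5 and 31.5 CPM in dividing cells (log2 -1.17 ± 0.18, edgeR adjusted p = 2.40e-06). It then stood at 47.5, 62.6, 46.6 and 41.7 CPM in resting mature cells, above every dividing library (log2 0.69 ± 0.17, adjusted p = 0.000812), though DESeq2 gave log2 0.24 without a call (adjusted p = 0.166). Sdhc, the other anchor, went from 24.1, 31.2, 23.9 and 24.5 CPM in immature to 14.5, 23.8, 16.1 and 11.2 CPM in resting mature cells (log2 -0.80 ± 0.16, edgeR adjusted p = 0.000113). Control 2 was the highest library for Sdhc in both stages. Sdhb, the iron-sulfur subunit, passed only in activated cells, where its log2 change was -0.63. Sdha was also called higher in resting mature than in dividing cells (log2 0.36), but under DESeq2 it stood at log2 -0.087 and with no filter on low counts at -0.12, and without adenosine 2 it missed the threshold (adjusted p = 0.1704).

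All 8 complex III genes were lower in dividing cells than in promyelocytes (28.4% of all genes), with a median log2 change of -0.75. Uqcr11, a small subunit, went from 306, 382 and 322 to 90.3, 61.9, 97.8 and 92.7 CPM (log2 -1.33 ± 0.16, edgeR adjusted p = 6.83e-08). Uqcrc1, a large core protein outside the redox centres, fell next, from 81.3, 63.8, 82.1 and 75.7 CPM in dividing to 35.1, 24.6, 38.6 and 34.7 CPM in immature cells (log2 -0.86 ± 0.18, edgeR adjusted p = 0.000166). Uqcrb, which lies next to the quinone site, had its largest fall by TMM last. It had 65.2, 77.9, 52.4 and 71.3 CPM in immature and 19.3, 21.4, 16.1 and 20.4 CPM in resting mature cells (log2 -1.90 ± 0.17, edgeR adjusted p = 2.22e-10). By TMM the 3 genes of 1 complex thus had their largest falls at different steps. In activated cells Uqcrc2, the other large core protein, had 20.9, 11.9 and 24.1 CPM against 39.1, 30.4, 44.9 and 33.3 CPM at rest (log2 -1.09 ± 0.23, edgeR adjusted p = 0.000642).

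Complex IV reduces oxygen, and its nuclear subunits surround a catalytic core made in the mitochondrion. At the 4 steps 8, 3, 7 and 3 of 13 tested complex IV genes were lower and none was higher. Of all genes 28.4%, 26.5%, 28.6% and 16.4% were lower, so the complex IV share was near that of all genes at the second step. Cox7b had 411, 350 and 486 CPM in promyelocytes and 126, 122, 97.8 and 131 CPM in dividing cells (log2 -1.34 ± 0.17, edgeR adjusted p = 9.39e-08). Cox6c stood at 227, 222, 215 and 231 CPM in immature cells and had 124, 104, 116 and 127 CPM in resting mature ones (log2 -1.06 ± 0.16, edgeR adjusted p = 4.04e-06). Cox7a2l had 84.7, 85.2, 99.8 and 93.1 CPM at rest and 16.7, 26.1 and 30.1 CPM in activated cells (log2 -1.72 ± 0.22, edgeR adjusted p = 1.05e-06). No activated library came near a resting one, though few UMIs stand behind the activated values of control 1 and adenosine 1. Ndufa4, first assigned to complex I and now placed with complex IV, was called lower at all 4 steps. It had 997, 878 and 1049 CPM in promyelocytes, 438, 322, 335 and 450 CPM in dividing, 178, 130, 155 and 205 CPM in immature and 107, 77.1, 79.8 and 97.1 CPM in resting mature cells. Its log2 changes by TMM at these steps were -0.76, -0.88 and -1.01, whereas in CPM the last of these falls was the smallest in every library.

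In complex V, the ATP synthase, 14, 5, 13 and 7 of 17 genes were lower at the 4 steps. Beside the 28.4%, 26.5%, 28.6% and 16.4% of all genes lower, the complex V share was near that of all genes at the second step. The 3 genes Atp5g1, Atp5g2 and Atp5g3 encode the same mature c subunit of the rotor ring with different import sequences. By TMM they had their largest falls at different steps. Their promoters are shown with those of the paired complex IV genes Cox6b1 and Cox6b2, because members of each set carry a like protein and differ in level. Each line is the 150 bases before the RefSeq start in GRCm38.p6, 5′ to 3′ on the gene's strand, which is minus for all 5, with a motif match in capitals.
Atp5g1, chr11:96075632-96075781: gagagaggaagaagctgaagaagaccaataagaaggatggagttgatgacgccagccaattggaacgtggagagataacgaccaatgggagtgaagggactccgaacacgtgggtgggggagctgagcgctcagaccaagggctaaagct
Atp5g2, chr15:102671048-102671197: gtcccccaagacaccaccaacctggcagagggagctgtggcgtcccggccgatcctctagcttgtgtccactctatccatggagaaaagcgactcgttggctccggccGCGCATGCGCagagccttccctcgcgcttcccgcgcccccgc
Atp5g3, chr2:73911327-73911476: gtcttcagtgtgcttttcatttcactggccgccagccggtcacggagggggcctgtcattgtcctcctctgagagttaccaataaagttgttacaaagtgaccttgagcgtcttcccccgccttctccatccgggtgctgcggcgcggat
Cox6b1, chr7:30626115-30626264: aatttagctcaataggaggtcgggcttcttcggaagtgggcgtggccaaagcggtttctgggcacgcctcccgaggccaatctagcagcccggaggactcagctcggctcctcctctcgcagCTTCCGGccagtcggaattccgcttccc
Cox6b2, chr7:4753095-4753244: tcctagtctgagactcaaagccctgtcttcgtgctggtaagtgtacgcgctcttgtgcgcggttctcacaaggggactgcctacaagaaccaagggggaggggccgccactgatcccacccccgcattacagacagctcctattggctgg
The capitals in Atp5g2 are GCATGCGC, a core motif of the factor NRF1, overlapping with its own complement, and those in Cox6b1 are the complement of CCGGAAG, an ETS family motif. The whole RefSeq window of 300 bases was searched on both strands for these and for ATGGCGGC, a YY1 motif, in the 65 of 81 members with an entry. The NRF1 letters were in the windows of 10 of the 65 members, against 3.05% of 27025 genes, the ETS letters in 17, against 9.93% of genes, and the YY1 letters in 6, against 2.61% of genes. Of all 32851 windows, 2.71%, 8.86% and 2.24% held them. A match is a match of letters and no evidence of binding.

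Atp5g1 had 538, 415 and 662 CPM in promyelocytes and 90.0, 76.5, 77.0 and 104 CPM in dividing cells, the largest called fall of a complex V gene at that step (log2 -2.14 ± 0.16, edgeR adjusted p = 7.39e-12). By TMM Atp5g2 had its largest fall one step later, from 269, 239, 230 and 274 to 67.5, 68.9, 67.4 and 81.02 CPM (log2 -1.50 ± 0.16, edgeR adjusted p = 6.45e-09). Atp5g3 had its largest by TMM at the third step, from 67.9, 60.7, 71.0 and 56.5 CPM in immature to 26.9, 23.5, 32.7 and 22.6 CPM in resting mature cells (log2 -1.39 ± 0.15, edgeR adjusted p = 1.53e-08). At the second step Atp5g3 did not pass (adjusted p = 0.0578). In resting mature cells the 3 genes stood within 16.2 to 44.8 CPM, whereas in promyelocytes they ranged from 297 to 829 CPM. Atp5o, a stalk subunit, fell from 77.0, 70.5, 62.9 and 88.9 CPM in immature to 32.5, 30.7, 21.4 and 27.6 CPM in resting mature cells (log2 -1.54 ± 0.17, edgeR adjusted p = 1.96e-08). Atp5c1, the central shaft, had 84.6, 73.4, 69.0 and 101 CPM at rest and 37.6, 26.1 and 18.0 CPM in activated cells (log2 -1.36 ± 0.24, edgeR adjusted p = 5.79e-05). The 18.0 CPM in adenosine 1 equals 3 counts.

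Atp5l, a membrane subunit of complex V, rose. It had 340, 257, 329 and 321 CPM in dividing and 494, 439, 531 and 482 CPM in resting mature cells, and the 2 stages did not overlap (log2 0.84 ± 0.17, edgeR adjusted p = 5.32e-05; 0.0557 with no filter on low counts). Atp5md, a small membrane subunit, was the 1 member called higher in activated than in resting cells. It had 88.3, 90.0, 90.9 and 71.5 CPM at rest and 142, 99.5 and 132 CPM in activated cells (log2 0.52 ± 0.18, edgeR adjusted p = 0.0263), and missed the threshold without adenosine 2 (adjusted p = 0.111). Over the last 300 bases of its transcripts, where this 3′ method counts, Atp5l shares 70.1% of its runs of 50 bases with other genes, mostly pseudogenes. The same holds for 55.5% in Atp5g2, 59.2% in Atp5h, 65.2% in Cox7c and 53.0% in Ndufs3. Counts of these 5 genes are less certain, since reads from a copy cannot be told apart there.

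**Figure D3:**
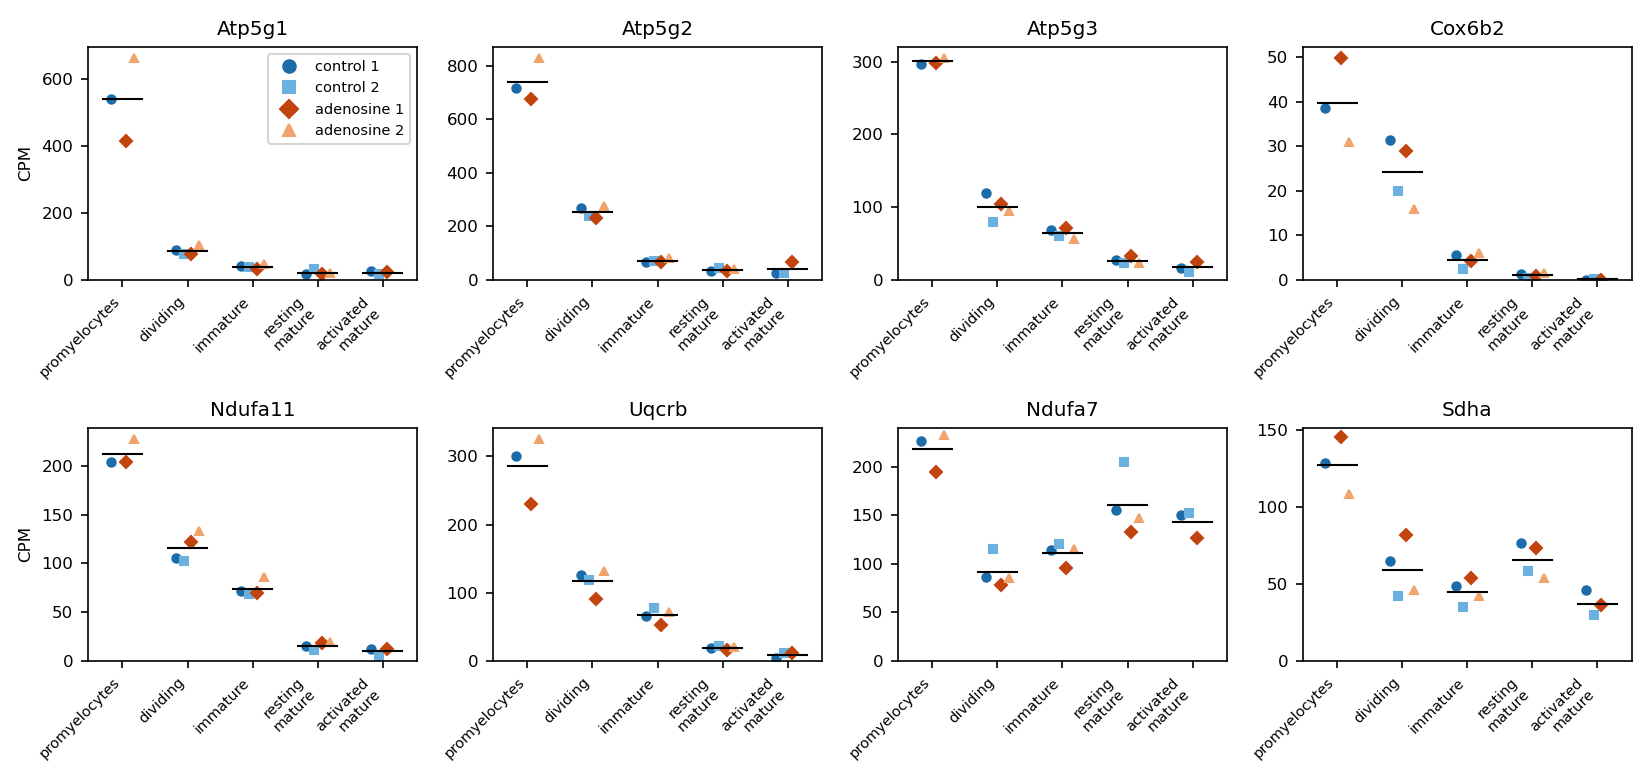
Level in CPM (linear axis from 0) of 8 subunit genes in 5 neutrophil stages, with 1 symbol per library and a line at the mean. Atp5g1 drops from a mean of 538 CPM to 21.03 CPM between promyelocytes and resting mature neutrophils and Uqcrb from 286 to 19.3 CPM, whereas Ndufa7 rises from 91.1 CPM in dividing to 160 CPM in resting mature cells.

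Complex IV and complex V have isoforms known from single tissues, and 4 rare complex IV isoforms passed the UMI minimum. Cox6a2, known as the heart and muscle form of subunit 6A, lay on chromosome 7 at 128205435 to 128206387 (GRCm38, minus strand). It had 727, 587 and 1111 CPM in plasmacytoid dendritic cells of control 1, adenosine 1 and adenosine 2. Neutrophils had 0.583, 0.198, 0.561 and 0.498 CPM of it, and its log2 difference was 9.50 ± 0.43 (edgeR adjusted p = 1.62e-12). Of 1958 Cox6a2 UMIs in kept cells, 68.2% lay in the 142 plasmacytoid dendritic cells and 21.1% in cells that entered no gate. In control 2, which had 14 such cells and so no place in the fit, they held 236 of 249 Cox6a2 UMIs. Conventional dendritic cells had 33.8, 1.29, 36.9 and 13.98 CPM (log2 4.59 ± 0.40, edgeR adjusted p = 5.07e-09). There the plasmacytoid gate markers Siglech and Klk1 summed to 15.8, 0, 65.5 and 26.6 CPM, against 2269 to 2568 CPM in the plasmacytoid gate, and their part in this value was not tested. Basophils or mast cells had 0 Cox6a2 UMIs.

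Cox6b2, known as the testis form of subunit 6B, was a gene of early cells. It had 38.6, 49.7 and 31.0 CPM in promyelocytes and 31.4, 20.0, 29.0 and 16.0 CPM in dividing cells, which did not differ by the test (log2 -0.16, edgeR adjusted p = 0.501). Immature cells had 5.54, 2.46, 4.17 and 6.02 CPM, below every dividing library (log2 -1.99 ± 0.22, adjusted p = 1.73e-08). Resting mature cells had 1.35, 0.301, 0.883 and 1.49 CPM. The highest level was in erythroid cells of adenosine 1, at 159.6 CPM from 67 cells, the only library with enough of them. The common form Cox6b1 changed far less, with means of 454, 257, 213 and 192 CPM from promyelocytes to resting mature cells. UMI counts of this method are not scaled by gene length, so levels of Cox6b1 and Cox6b2 are comparable only as captured molecules.

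Cox7a1, the muscle form of subunit 7A, was low. It had 1.54, 5.25, 1.99 and 1.31 CPM in monocyte-macrophages, which held 56.5% of its 214 UMIs, and control 2 was the highest. Cox4i2, the form of subunit 4 known from lung, had 46 UMIs in promyelocytes and 0 UMIs in 12081143 UMIs of dividing cells. Against 3 counts over all dividing cells, it was at least 13.4-fold higher in promyelocytes, at 3.33 CPM pooled over 3 libraries. That bound covers counting error only and not the spread between libraries. Of its 264 UMIs, 136 lay in ungated cells of adenosine 1.

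**Figure D4:**
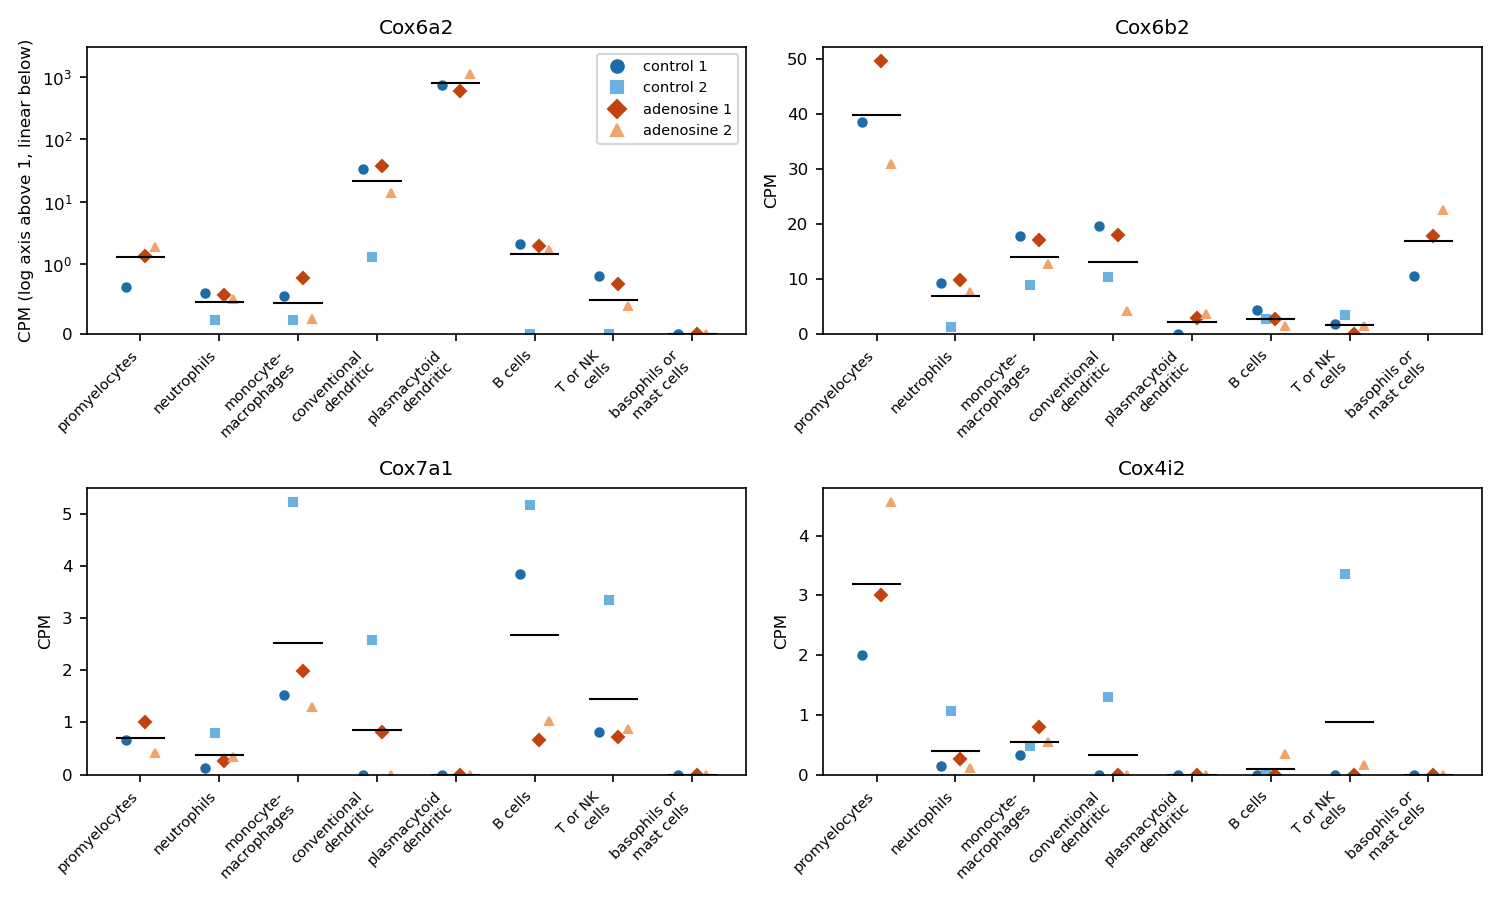
Level in CPM of 4 rare complex IV isoforms in promyelocytes and 7 cell classes, with 1 symbol per library and a line at the mean (Cox6a2 on an axis that is logarithmic above 1 CPM and linear below, the others on linear axes from 0). Cox6a2 stands at 587 to 1111 CPM in plasmacytoid dendritic cells, and Cox6b2 is highest in promyelocytes among the groups drawn, which leave out erythroid cells.

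Among the 7 classes with enough cells in at least 3 libraries, promyelocytes aside, monocyte-macrophages had the highest summed level, at 17196, 16408, 17755 and 18990 CPM. Erythroid cells had enough cells in adenosine 1 only, where 67 cells gave a higher level of 20506 CPM. Neutrophils had 8397, 5272, 8246 and 9241 CPM. Conventional dendritic cells had 11898, 13489, 10911 and 13291 CPM. The monocyte-macrophage values lay above all libraries of the other 6 classes. B cells had 12567, 12934, 7899 and 10064 CPM, and T or NK cells 9881, 13633, 9540 and 14974 CPM. Plasmacytoid dendritic cells had 10029, 10492 and 12846 CPM, and basophils or mast cells 10581, 9046 and 13912 CPM, in control 1, adenosine 1 and adenosine 2. These 5 classes overlapped each other.

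In monocyte-macrophages 42 of 79 members were higher than in neutrophils (32.2% of all 11714 genes) and 1 was lower (31.2%). The members' median log2 difference was 0.49, beside -0.01 for all genes. Atp5g1 was at 204, 254, 190 and 247 CPM in monocyte-macrophages and 43.0, 23.5, 42.5 and 54.0 CPM in neutrophils (log2 1.67 ± 0.23, edgeR adjusted p = 2.22e-06). Ndufs3 was at 87.2, 67.2, 76.4 and 102 CPM against 17.5, 11.4, 16.3 and 20.2 CPM (log2 1.56 ± 0.19, edgeR adjusted p = 3.87e-07). Both genes were higher in every library. Ndufc2 (log2 1.5), Atp5g2 (1.45), Uqcrfs1, the Rieske iron-sulfur protein (1.12), and Cox7b (1.04) were among the other leading genes of their complexes. Core complex I passed with 5 of 7 genes, complex II with 2 of 4, complex III with 6 of 8, complex IV with 5 of 13 and complex V with 10 of 17. The gene called lower was Ndufb7 (log2 -0.70 ± 0.22, edgeR adjusted p = 0.008), an accessory subunit of complex I. It had 228, 231, 247 and 248 CPM in monocyte-macrophages and 251, 110, 265 and 284 CPM in neutrophils, so that control 2 went the other way. By library size alone Ndufb7 stood at log2 0.068, and it lost its call without control 1 (adjusted p = 0.116), adenosine 1 (0.0878) or adenosine 2 (0.117). Without control 2, 4 members were lower (3564 of 11459 genes).

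For the other classes the direction of the calls depended on the scaling, for all genes as well as for the members. The gate markers took 19.5% to 33.3% of all neutrophil UMIs. With them left out of the library size, B cells had 24 members higher and 13 lower, beside 5275 and 2662 of 11697 genes. The median of all genes was still 0.47. Library size alone moved the median log2 difference of all genes from between -0.23 and -0.01 up to between 0.75 and 0.91 over the 6 classes, and the members' median has to be read against it. Relative to the bulk of genes (TMM), B cells had 9 members higher (32.4% of all genes) and 37 lower (33.8%). By library size alone 40 of 79 were higher (6628 of 11714 genes) and 5 lower (1961 genes). T or NK cells had 12 higher (32.2%) and 33 lower (34.1%) by TMM, and 47 and 1 by library size (6510 and 2003 genes). Conventional dendritic cells had 15 higher (31.7%) and 24 lower (31.7%) by TMM, and 56 and 1 by library size (6560 and 1658 genes). Plasmacytoid dendritic cells had 7 higher (27.7%) and 37 lower (30.9%) by TMM, and 33 and 2 by library size (5669 and 1747 genes). Basophils or mast cells had 6 higher (18.6%) and 26 lower (25%) by TMM, and 34 and 0 by library size (4913 and 1108 genes). Under both scalings the members' median in these 5 classes lay below that of all genes: for B cells it was -0.39 beside -0.05 by TMM and 0.58 beside 0.91 by library size. These counts also moved with single libraries. Lower members of B cells fell to 24 of 79 without adenosine 1 (3643 of 12140 genes), near the share of all genes. Those of T or NK cells fell to 18 of 79 without it (3594 genes) and 17 of 78 without control 1 (3578 of 12175 genes). Those of conventional dendritic cells fell to 9 without adenosine 1 (3131 of 12140 genes) or control 1 (3134 of 12175) and 13 without adenosine 2 (3191 of 11085). Lower members of basophils or mast cells rose to 40 without control 2 (2993 of 11459 genes). Higher members fell to 5 in B cells (3234 of 12175 genes) and 7 in conventional dendritic cells (3159 genes) without control 1.

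Ndufs3 and Ndufb7 in 2 classes each and Atp5g2 in B cells kept direction and call under the settings run for them. Ndufs3 was higher in B cells (81.7, 101, 54.9 and 82.1 CPM) than in neutrophils (log2 1.28 ± 0.20, edgeR adjusted p = 6.75e-06). It was also higher in T or NK cells, at 58.7, 74.0, 65.7 and 85.5 CPM (log2 1.17 ± 0.20, edgeR adjusted p = 2.47e-05). Atp5g2 had 422, 493, 270 and 333 CPM in B cells beside 96.4, 40.5, 99.2 and 119 CPM in neutrophils (log2 1.15 ± 0.22, edgeR adjusted p = 7.33e-05). Ndufb7 had 155, 153, 105 and 134 CPM in B cells (log2 -1.71 ± 0.23, edgeR adjusted p = 8.18e-07), below the neutrophils of the same library except in control 2. In plasmacytoid dendritic cells Ndufb7 had 115, 109 and 110 CPM (log2 -1.96 ± 0.27, edgeR adjusted p = 1.70e-06).

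Adenosine was compared with control to ask whether the treatment moved these genes within a cell type. The edgeR test called no member in all cells, neutrophils, immature or resting mature neutrophils, monocyte-macrophages, conventional dendritic cells or B cells, and 0% of all genes passed in any of the 7 comparisons. At an unadjusted p below 0.05 there were 16 members in B cells and 0 in the other 6, and among all genes 140 to 562. DESeq2 called no member in any of the 7 and 2 to 107 genes. In data simulated with the common spread of the neutrophil libraries for every gene, the edgeR test recovered 0% of genes changed 4-fold. Genes with a smaller spread of their own are not covered by it, and 107 is the DESeq2 count in neutrophils. With 2 libraries a group, the absence of calls in neutrophils as a whole therefore does not exclude changes of that size.

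In all cells the summed level was 12909, 10684, 13731 and 14886 CPM, and both adenosine libraries lay above both controls. In sums over all cells, fewer cells of a type and less RNA per cell cannot be told apart. In neutrophils it was 8397, 5272, 8246 and 9241 CPM, and the groups overlapped. Control 2 was the low library, and its neutrophils were mostly of the activated stage. Within a stage the groups overlapped: immature cells ranged from 7979 to 9034 CPM and resting mature cells from 6196 to 6661 CPM. The members' median log2 change was 0.32 in neutrophils (all genes 0.03), -0.04 in immature (0.01) and 0.07 in resting mature cells (-0.01). Without control 2 the neutrophil median was 0.07. Without control 1, which leaves control 2 as the lone control, 13 of 81 members (16%) were called higher, beside 14% of all 13186 genes tested, and none lower, beside 17%. That fit takes the lone control to vary like the adenosine libraries, and the members' share higher was near that of all genes. In that setting Ndufa11 (log2 1.87, edgeR adjusted p = 0.017) and Ndufv3 (1.36, adjusted p = 0.0186) passed. With all libraries Ndufa11 had 58.7, 15.7, 64.2 and 79.3 CPM in neutrophils (log2 0.88 ± 0.60, edgeR adjusted p = 0.832) and Ndufv3 had 113, 39.7, 134 and 126 CPM (0.66 ± 0.48, adjusted p = 0.832). The lowest p in the other direction was that of Ndufa7 (123, 165, 105 and 118 CPM, log2 -0.57 ± 0.42), then Sdhd (37.6, 46.3, 40.6 and 34.0 CPM, log2 -0.39 ± 0.38).

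In monocyte-macrophages the members' median log2 change was 0.06, against the bulk of genes. Ndufv1 had 45.7, 34.6, 54.6 and 70.6 CPM there, with both adenosine libraries above both controls (log2 0.58 ± 0.29, edgeR adjusted p = 0.999). Cox7a1 had a log2 change of -1.16 ± 0.74 from 54 UMIs in control 2 and 19 to 25 in the others. An interaction term tested how far the adenosine change of monocyte-macrophages departs from that of neutrophils. It called 0 of 80 members and 0 of 13565 genes (edgeR), with 0 members and 236 genes at an unadjusted p below 0.05.

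B cells had the widest shift. The summed level was 12567 and 12934 CPM in the controls and 7899 and 10064 CPM with adenosine, and the groups did not overlap. The members' median log2 change was -0.56 beside -0.01 for all genes, and 3 of 77 lay above 0. Atp5k, a membrane subunit of complex V, had 134, 93.4, 60.1 and 60.5 CPM (log2 -0.95 ± 0.31, edgeR adjusted p = 0.760). Ndufa8, an accessory subunit of complex I, had 93.6, 101, 36.4 and 60.5 CPM (log2 -0.99 ± 0.36, edgeR adjusted p = 0.789). Neither passed, nor did any other member. Sdha had 146, 104, 167 and 113 CPM (log2 0.12 ± 0.33, edgeR adjusted p = 0.992) and Uqcrc2 118, 96.0, 100 and 121 CPM (0.03 ± 0.32, adjusted p = 0.997), the 2 lowest p values above 0. Division genes summed to 4549, 1891, 1151 and 1926 CPM in these B cells, and their part in the result was not tested. The mitochondrially encoded subunits summed to 40725, 35872, 51785 and 46410 CPM, higher in both adenosine libraries. The B cell gate held 376, 78, 325 and 679 cells. Leaving out 1 library at a time moved the median between -0.82 (without adenosine 2) and -0.29 (without adenosine 1), with no member called. The 16 members with an unadjusted p below 0.05 came to 0 without adenosine 1, 10 without control 2, 13 without adenosine 2 and 18 without control 1. They came to 6 under DESeq2, 2 with doublets kept and 47 with the replicate number as a block, also with no member called. In conventional dendritic cells the median was -0.21 beside -0.02 for all genes. It came to -0.01 without control 2 or without adenosine 1.

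**Figure D5:**
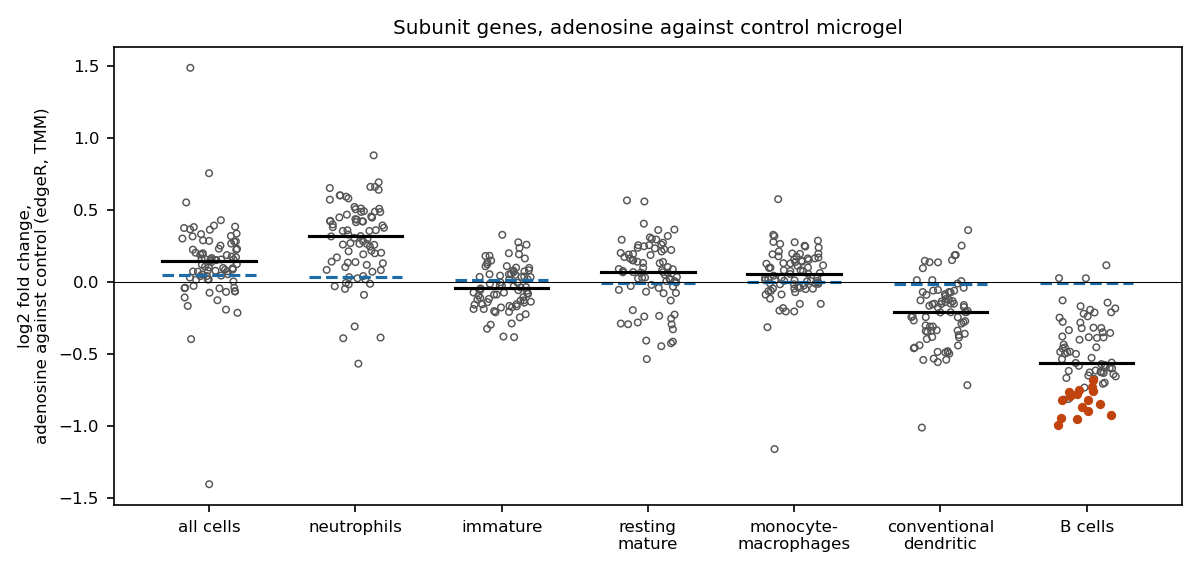
Log2 fold change (edgeR, TMM) of each subunit gene, adenosine against control, in 7 sets of cells. Filled points have an unadjusted p below 0.05 and occur in B cells, where there are 16; black lines mark the members' median and dashed blue lines the median of all genes tested.

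Other genes of the pathway were described from lists. Of all genes, 28.4%, 26.5%, 28.6% and 16.4% were lower and 35%, 27.3%, 25% and 14.7% higher at the 4 steps. The 13 mitochondrially encoded subunits went with the nuclear ones during maturation, with 10, 13 and 13 lower at the first 3 steps and none higher. In activated cells they parted: 10 of 13 were higher than at rest, with a median log2 change of 0.96. Their sum was 4447, 3293 and 10400 CPM in activated cells and 3580, 3069, 4349 and 3154 CPM at rest, so adenosine 1, with 70 activated cells, was far above the others. Control 2, with 2754 activated cells, differed little, at 3069 CPM at rest and 3293 CPM in activated cells. Subunits and carriers outside the symbol rule, such as Cyc1 and Cycs, had 5, 4, 3 and 2 of 5 lower at the 4 steps, and 1 of 5 higher in activated cells. Tricarboxylic acid cycle genes had 11, 8, 8 and 5 of 17 lower, and 1 and 2 higher at the first 2 steps. Mitochondrial ribosomal protein genes had 60, 51, 50 and 15 of 78 lower and 2, 3, 4 and 7 higher over the 4 steps, and assembly factors 27, 15, 16 and 8 of 42 lower and 3, 5, 2 and 3 higher. In activated cells the shares lower in both lists were near the 16.4% of all genes. Assembly factors summed to 706, 688 and 842 CPM there and 563, 728, 557 and 538 CPM at rest, with a median log2 change of -0.04. Glycolysis genes differed from them in activated cells, where 14 of 18 were higher and 2 lower (median log2 1.32). Genes of dissociation and stress had 6 of 11 higher and 1 lower there, and 9 of 11 higher from immature to resting mature cells, and their part in the members' change was not tested.

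Over the 21 sums of a library and a stage, the genes whose log2 CPM ran closest to the summed members were Rpl7 (Pearson r = 0.986), Cuta (0.984), Rps24 (0.983), Rps13 (0.982) and Rpl11 (0.980). All but Cuta encode cytosolic ribosomal proteins. They were taken from 4455 genes with a mean log2 level of at least 20 CPM, whose median r was -0.02. Of 73 members above that minimum, 50 had an r above 0.8, where 10.6% of all genes did, and the members' median was 0.886. Ndufa7 was the lowest at 0.12, followed by Ndufb6 at 0.49, Atp5l and Sdhd at 0.52 and Atp5md at 0.54. The sums share libraries and depth falls along the stages, so these values describe the pattern only, and the members are part of their own sum.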

How the data were processed

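Single-cell RNA of 4 libraries was deposited as UMI counts per gene and cell barcode, which the authors made with Cell Ranger 7.0.0 and bcl2fastq on build mm10, per the submitters' processing notes. The sources used here do not give the annotation or the treatment of intronic reads. Depth was 32277757 to 68117846 UMIs per library. Kept cells had at least 200 genes and under 10% mitochondrial UMIs. The cells with the highest Scrublet doublet scores, 0.8% per 1000 barcodes, were left out (scanpy 1.11.5, Python 3.11.15), because the automatic threshold marked only 0 to 204 cells. Gates were set on marker UMIs per 10000, with at least 3 marker UMIs for every class other than neutrophils, and used none of the 81 genes. Counts were summed per library and gate. Adenosine against control needed 50 cells in a library, and classes and stages needed 30 cells in at least 3 libraries. Low genes were dropped by filterByExpr, and sums scaled by TMM were tested two-sided with edgeR 4.0.16 in R 4.3.3 over all genes. DESeq2 1.42.0 and the settings in the closing section were alternatives.

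Named genes are, for each complex, up to 2 called members by fold change with at least 20 CPM, of which the first is mostly given; up to 4 called against the main direction; the rare isoforms; and core complex I and complex II along the stages. Of the genes this rule names, 1 is not reported here. Where none was called, they are the 2 lowest p-values in each direction. The members and lists were chosen with earlier results of these data known. Tested on data simulated with the observed common spread for every gene, the comparison of immature with resting mature cells (10090 genes) recovered 94% of genes changed 2-fold. Promoters are from RefSeq (GRCm38.p6) and positions from GENCODE M21. The limit of 3 counts covers counting error only.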

Additional observations from a re-analysis of the deposited data

How the results depend on the processing

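Of 877 values of named genes under other settings, 825 kept their side of the threshold, and their direction where called. Another 40 lost a call, 2 gained one and 10 turned sign with a call in the main or the other fit. Sign changes with no call in either fit are counted among the 825. Of 528 counts and levels, 438 stayed within 1.5 times or 1 SD. The cause of the moves below was not tested. By library size alone, members higher and lower than in neutrophils numbered 75 and 0 in monocyte-macrophages, 56 and 1 in conventional and 33 and 2 in plasmacytoid dendritic cells, 40 and 5 in B cells, 47 and 1 in T or NK cells and 34 and 0 in basophils or mast cells. Of all 11714 genes these were, in the same order, 6498 and 1696, 6560 and 1658, 5669 and 1747, 6628 and 1961, 6510 and 2003, and 4913 and 1108. Higher members came to 0 from promyelocytes to dividing, 1 (54 lower) from dividing to immature and 6 from immature to resting mature cells. Of all 11804 genes, 2343, 2028 (4198 lower) and 3402 were higher at these steps. Ndufb7 in monocyte-macrophages became 0.068, and from promyelocytes to dividing cells Ndufs4 became -0.11 and Ndufv3 -0.026. By library size without the gate markers, chosen after seeing the data, 0 members were lower in monocyte-macrophages (2576 of 11697 genes). The counts of the other classes, in the same order, were 30 and 5, 17 and 14, 24 and 13, 25 and 8, and 11 and 2. Of all genes these were 4998 and 2455, 4345 and 2458, 5275 and 2662, 5078 and 2767, and 3440 and 1675. From dividing to immature 45 members were lower (3919 of 11521 genes). Higher members were 0 from immature to resting, 0 from resting to activated and 2 from dividing to resting mature cells, where Sdha became -0.047. Of all genes 2368, 1223 and 2954 were higher there. With DESeq2, 3 members were lower in monocyte-macrophages (3791 of 11714 genes). At the first step 0 were higher (2168 of 11804 genes), with Ndufs4 at -0.17 and Ndufv3 at -0.078. At the second 52 were lower (3938 genes), and in activated cells 2 were higher (1974 of 11575 genes). From dividing to resting mature 2 were higher (2817 of 11804 genes), with Sdha at -0.087. With no filter on low counts, higher members were 3 in plasmacytoid dendritic cells, 1 in basophils or mast cells, 0 at the first step (Ndufs4 -0.092, Ndufv3 -0.011), 0 (37 lower) at the second, 0 at the third, 2 (23 lower) in activated cells and 1 from dividing to resting mature, with Sdha at -0.12. With no library block, higher members were 4 in plasmacytoid dendritic cells (3006 of 11714 genes) and 3 in basophils or mast cells (2013 genes). They were 1 at the first (3146 of 11804 genes) and 0 at the third step (2240 genes), and 13 were lower at the second (2389 genes). With doublets kept, 2 were lower in monocyte-macrophages (3734 of 11919 genes). Under a stricter gate, higher members were 2 in basophils or mast cells (1739 of 12091 genes). They were 15 at the second (3508 of 10973 genes) and 7 at the third step (3354 genes), and 9 from dividing to resting mature (4086 genes).

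Without mitochondrially encoded and ribosomal protein genes in the denominator, the summed level was 30828 CPM in promyelocytes, 12263 in dividing cells, 20841 in monocyte-macrophages, 14607 in conventional and 12977 in plasmacytoid dendritic cells, 13407 in B cells and 14863 in T or NK cells. Without the gate markers, also chosen after seeing the data, it was 24601 in promyelocytes, 17067 in dividing, 13372 in immature, 8223 in resting, 5106 in activated and 8545 in interferon-stimulated cells and 10875 in neutrophils. Cells thinned to 1000 UMIs gave 7883 in immature cells. Leaving out each library in turn gave 0 to 13 members higher with adenosine in neutrophils and 0 to 4 lower in monocyte-macrophages. Conventional dendritic cells had 7 to 13 higher and 9 to 34 lower, B cells 5 to 9 higher and 24 to 43 lower, T or NK cells 17 to 41 lower, and basophils or mast cells 40 lower without control 2. From dividing to immature 3 to 8 were higher and 16 to 39 lower, from immature to resting 0 to 7 higher, and from dividing to resting 3 to 8 higher. The activated stage could be refitted without adenosine 2 only, with 0 higher.

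With the replicate block, 0 members were called between adenosine and control in any of the 7 comparisons. Over genes, the deviations of same-numbered libraries from their group mean correlated at 0.02 to 0.51. With 2 libraries a group, crossed pairs have the same values with the opposite sign by construction. Same-numbered libraries share only a number. No value could be had for plasmacytoid dendritic cells under a mitochondrial limit of 5% or a stricter gate, for activated and interferon-stimulated cells under a stricter gate, or for these, promyelocytes, basophils or mast cells and plasmacytoid dendritic cells without any 1 of the 3 libraries that hold enough of them.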
